A study of Mus musculus with 23 samples.

Results

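The MHC class II antigen-presentation genes Cd74, H2-Aa, H2-Ab1, H2-Eb1, H2-DMa and H2-DMb1 and the regulator gene Ciita were followed as 7 of the 32285 genes in each of 11 single-cell gene-expression matrices. They were picked by name with earlier results of these data known, and no measured value enters the rule. The cells were mouse bone marrow cells sorted as KSL, that is, positive for the receptor Kit and for Sca1 and negative for mature lineage markers, a gate that holds hematopoietic stem cells and multipotent progenitors. The floxed gene was either Jarid2, in Jarid2fl/fl mice, or Ezh2, in Ezh2fl/fl mice; both encode subunits of the Polycomb repressive complex PRC2, and the study asked whether loss of the co-factor and loss of the catalytic subunit act differently.

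There were 6 baseline libraries from untransplanted mice of 2 months, with 1 male and 1 female library for every genotype (Control, Ezh2 KO, Jarid2 KO), and surface-antibody counts for the same cells. Another 5 libraries held CD45.2 donor cells sorted from primary recipients 18 weeks after 500000 CD45.2 marrow cells and 500000 CD45.1 competitor cells were given to lethally irradiated mice: 1 Control, 2 Ezh2 KO and 2 Jarid2 KO, with no sex given. All libraries, Control included, carry the label Mx1-Cre, a Cre driver whose promoter responds to interferon and is active in blood cells among other tissues; no inducing agent is named, and the treatment field reads as untreated. The sources used here do not say what alleles Control carries beyond this label, which exons were removed, or whether a library pooled animals.

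MHC class II molecules carry peptides from engulfed material to the cell surface, where CD4+ T cells read them. H2-Aa with H2-Ab1 make the I-A molecule, and H2-Eb1 is the beta chain of the I-E molecule. Cd74 encodes the invariant chain that fills the groove until H2-DMa and H2-DMb1, the chains of the DM editor, exchange its remnant for peptide. Ciita binds no DNA by itself: it docks on factors held at the X, X2 and Y boxes of class II promoters and switches them on. Dendritic cells and B cells express the set constitutively, interferon gamma induces it in many other cells, and class II on hematopoietic stem and progenitor cells is known from both mouse and human marrow.

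The promoters are shown because Ciita acts through these boxes. RefSeq windows (GRCm38.p6) were found for H2-Aa, H2-Eb1, H2-DMb1 and H2-DMa among the members on chromosome 17. The 150 bases just before the annotated start are given below, with capitals marking each match to CTNGNAACT, a core of the X box read off these windows after looking at them, and to ATTGG, the CCAAT motif of the Y box on the opposite strand; both strands were searched and no match overlapped another.
H2-Aa, minus strand, chr17:34287824-34287973: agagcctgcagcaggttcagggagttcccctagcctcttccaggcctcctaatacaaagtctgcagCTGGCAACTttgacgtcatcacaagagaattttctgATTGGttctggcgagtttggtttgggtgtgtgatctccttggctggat
H2-Eb1, plus strand, chr17:34305717-34305866: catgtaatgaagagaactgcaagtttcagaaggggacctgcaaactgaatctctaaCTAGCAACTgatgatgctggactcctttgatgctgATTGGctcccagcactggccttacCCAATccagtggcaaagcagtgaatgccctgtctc
H2-DMb1, plus strand, chr17:34153041-34153190: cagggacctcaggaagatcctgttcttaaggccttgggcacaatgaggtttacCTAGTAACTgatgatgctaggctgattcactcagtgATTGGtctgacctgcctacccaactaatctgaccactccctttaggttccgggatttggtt
The distance from CTNGNAACT to the ATTGG that follows was 27 bases in H2-Aa, 26 in H2-Eb1 and 27 in H2-DMb1. Over 32817 promoter windows of this length, ATTGG on either strand was present in 24.5% and CTNGNAACT in 2%. Both on one strand within 30 bases were present in 20 windows (0.0609%), a set that holds these 3 genes by construction, since CTNGNAACT was read off them. Neither window of H2-DMa held either motif, which says only that these letters are not there. A match in a window is a description and not a measured binding site.

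The genes lie apart from each other on the map and some overlap or closely resemble a neighbour. On GRCm38.p6, H2-DMa spans chr17:34119693-34139101, H2-DMb1 chr17:34153191-34160229, H2-Ab1 chr17:34263227-34269418, H2-Aa chr17:34282744-34287823 and H2-Eb1 chr17:34305867-34316674. Ciita spans chr16:10480014-10531064 and Cd74 chr18:60803849-60812652. H2-DMa overlaps Brd2, Ciita overlaps Dexi, and H2-DMb1 has a near-identical neighbour, H2-DMb2, and how reads of such genes were assigned is not given in the sources used here, so the counts of these 3 genes are less certain than the others.

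After filtering, 73310 of 97066 barcodes were kept, 6723 to 9208 cells per baseline library and 4354 to 6149 per transplant library. Summed counts per library were 83921210 to 126527222 and 67618707 to 111514122 unique molecular identifiers (UMIs, 1 per captured RNA). The transplant libraries lost more cells to the limit on mitochondrial reads: 43.4% of barcodes were above 10% in Control, 25.7 and 27.4% in the Ezh2 KO pair, 36.6 and 37.4% in the Jarid2 KO pair, against 2.82 to 5.82% at baseline. Kit was at 241 to 295 CPM (counts scaled to a library total of 1000000) at baseline and 124 to 158 after transplant, Ly6a, which encodes Sca1, at 49.3 to 73.8 and 19.2 to 33.6, and the T-cell gene Cd3e at no more than 0.298. The floxed genes were read first. Ezh2 stood at 38.8 and 47.0 CPM in the transplanted Ezh2 KO libraries against 185 in Control (log2 difference -2.19, SE 0.13, adjusted p 8.4e-04, edgeR). At baseline it was -0.33 on the log2 scale with an adjusted p of 0.0599, and Jarid2 was not lower in either set of libraries labelled Jarid2 KO (0.46 and 0.52 on the log2 scale, adjusted p 0.107 and 0.212). A 3′ tag does not check a deletion elsewhere in the transcript, so the genotypes are used as labelled. Baseline Ezh2 KO libraries had Ezh2 at 162.5 and 147.9 CPM (male, female) against 208.8 and 193.2 in Control. How complete the loss of Ezh2 was at baseline was not tested. Cells with Xist and no Y-linked transcript made up 59.4% of the transplanted Control library and 48.3 and 49.9% of the Jarid2 KO libraries. In the Ezh2 KO libraries they made up 0.0163 and 0.0511%, a difference taken up beside the transplant results. Cells with a Y-linked transcript and no Xist numbered 807 in that Control library and 1393 and 1620 in the Jarid2 KO pair. The Control and Jarid2 KO transplant libraries therefore each mixed cells from animals of both sexes. No pair of libraries shared more than 39 barcodes.

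Where in the KSL gate the genes were expressed was described first. Cells were sorted into classes by transcript clusters built on Control cells without the 7 genes, and named by fixed marker lists; all values are CPM of the summed counts of a class in a library, and levels are not compared between genes. The conventional dendritic-like class, led by Plbd1, Xcr1 and Clec9a with 10 of 11 dendritic markers raised, had only 12 to 57 cells per baseline library and 15 to 38 per transplant library. It nevertheless held 22.3 to 59.6% of all Cd74 UMIs at baseline and 58.6 to 75.6% after transplant. Its Cd74 level was 12782 ± 1440 CPM (SD, n = 6) at baseline and 17127 ± 3306 (SD, n = 5) after transplant. Ciita, present at 409 ± 51.2 CPM (SD, n = 6) in this class at baseline, was at 0.6 ± 0.659 (SD, n = 6) in erythroid-like cells.

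The stem-cell-like class, called HSC-like from 10 of 11 raised HSC markers in its largest cluster, expressed the set at a low level that was not shared by the class furthest from antigen presentation. In HSC-like cells Cd74 ranged from 47.1 to 139 CPM with a median of 90.7 over the 6 baseline libraries, and H2-Aa from 68.4 to 131 with a median of 97.6. In erythroid-like cells of the same libraries Cd74 ranged from 0 to 9.07 CPM and H2-Aa from 0.411 to 2.88, which is also the level that free RNA in the droplets could give. The ranges of the 2 classes did not overlap for either gene. H2-Eb1, the I-E beta chain, gave 35 to 68.4 CPM in HSC-like cells and 0 to 2.04 in erythroid-like cells. HSC-like cells contributed 5.59 to 16.9% of all Cd74 UMIs at baseline and 4.14 to 7.13% after transplant.

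The 7 genes fell into a restricted and a broad pattern across classes, given here as a description because the classes come from the same cells. Cd74, H2-Aa, H2-Eb1 and Ciita were near the bottom of their range in erythroid-like cells and, after transplant, in basophil or mast-like cells, where Cd74 was 0 to 4.39 CPM and H2-Aa 0.446 to 9.15. In the same basophil or mast-like cells H2-Ab1 was at 33.5 to 72.1 CPM and H2-DMa at 128 to 214 CPM. In erythroid-like cells H2-Ab1, H2-DMa and H2-DMb1 were also at the lowest mean of the named baseline classes, 23.0 ± 3.31, 28.8 ± 5.73 and 5.00 ± 1.24 CPM (SD, n = 6), and in B lineage-like cells H2-DMa and H2-DMb1 were close to these, 29.8 ± 7.71 and 5.49 ± 1.80 CPM (SD, n = 6). B lineage-like cells, which at this stage were led by the pro-B genes Vpreb3, Igll1 and Pax5, had H2-Ab1 at 76.0 to 115 CPM, above its 39.1 to 74.6 in HSC-like cells, and H2-Aa, the gene of the partner chain, at 5.06 to 18.5, below its 68.4 to 131 in HSC-like cells. A pair of small unnamed baseline clusters lay between these and the dendritic-like class, with Cd74 at 6212 to 8700 CPM in cluster 27, led by the mature B-cell gene Ms4a1, and 814 to 2090 in cluster 24, led by the antibody light-chain gene Igkc. The T or NK-like baseline class, 25 to 91 cells per library led by Xcl1 and Ncr1, came next to the dendritic-like class among the named classes, with Cd74 at 279 to 1841 CPM and a median of 1150, and it was not among the cells left out in the comparisons below. The concentration in few cells was also visible without classes. The 1% of cells with the most UMIs of a gene held 41.3 to 76.5% of Cd74 at baseline and 83.2 to 87.9% after transplant. For H2-DMa they held only 5.34 to 6.26% and 4.73 to 5.13%. H2-Ab1 lay between, at 22.7 to 48.4% and 32.5 to 44.9%. Its range overlapped that of Ciita at baseline (35.1 to 54.6%) but not after transplant (62 to 80.6%).

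**Figure D1:**
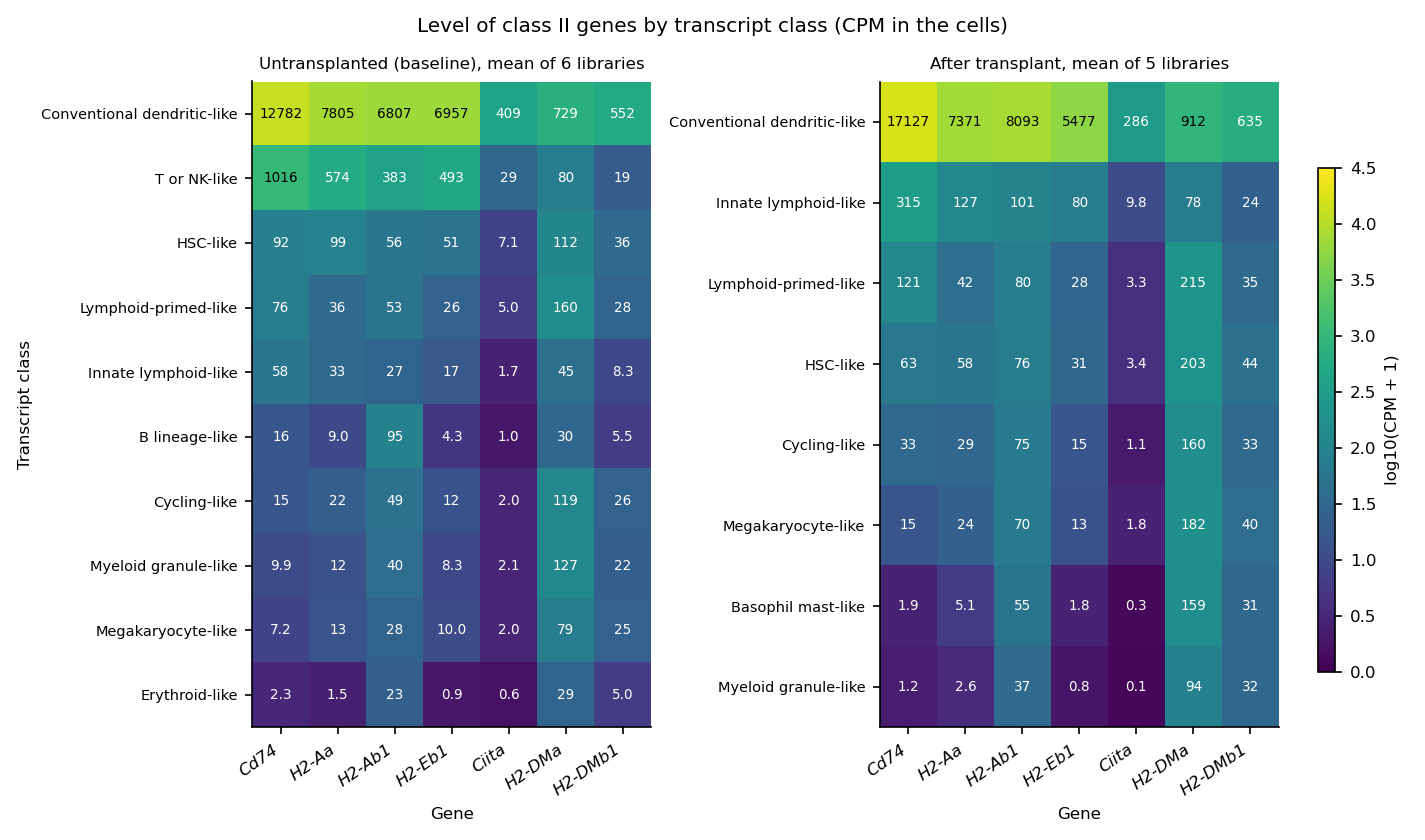
Mean level of each gene (columns) in each transcript class (rows) in CPM of summed counts, for 6 baseline libraries (left) and 5 transplant libraries (right); the colour is log10(CPM + 1) and the printed number is the mean CPM. The dendritic-like row is highest for all 7 genes, and after transplant H2-Ab1 goes from a mean of 75.9 CPM in the HSC-like row to 55.2 in the basophil or mast-like row, Cd74 from 62.7 to 1.85.

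Likeness across classes was read from the same classes and is not separate evidence for this division. A class entered for a library only with at least 50 cells, so smaller dendritic-like sums were left out. Over 45 baseline class sums of 10 classes, from libraries of all genotypes, log2 levels of H2-Aa correlated with H2-Eb1 at 0.963, Cd74 at 0.956 and Ciita at 0.855 (Pearson's r across sums that share libraries), and with H2-Ab1 at 0.731, H2-DMb1 at 0.641 and H2-DMa at 0.607. Among the 8655 genes with a mean of at least 10 CPM over these sums and an assigned symbol, mitochondrial and ribosomal protein genes left out, the 5 outside the set most like H2-Aa were Plekho2 (0.908), Fnbp1 (0.877), Phf11b (0.869), Inpp4a (0.867) and Trim30d (0.861). Plekho2 also led for Ciita (0.869), followed by Sh3bp1 (0.867), Ece1 (0.828), Lrrk1 (0.827) and Phc2 (0.816). With Ciita as the reference the members lay closer together. H2-Eb1 was at 0.861, H2-Aa at 0.855 and Cd74 at 0.811, against 0.754 for H2-Ab1, 0.733 for H2-DMb1 and 0.703 for H2-DMa.

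Surface antibodies gave a division of the baseline cells that used no transcript. CD150, CD48 and CD135 counts defined an HSC gate (CD150 high, CD48 low; 761 to 1383 cells per library) and 3 multipotent progenitor gates, MPP2 (CD150 and CD48 high), MPP3 (CD150 and CD135 low, CD48 high) and MPP4 (CD135 high, CD150 low). H2-Aa and Ciita had their lowest medians in MPP2 and their highest in MPP4. H2-Aa had medians of 60.5 CPM in HSC (36.6 to 94.7 over 6 libraries), 20.6 in MPP2 (7.53 to 44.8), 53.1 in MPP3 (22.4 to 74.0) and 103 in MPP4 (59.1 to 122). Ciita followed the same order, with medians of 4.81, 1.19, 3.54 and 7.49 CPM. In MPP4 the levels of H2-Ab1, 73.2 to 135 CPM, did not overlap the 30.5 to 64.5 CPM of the HSC gate.

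Against HSC, 5 of the 7 genes were lower in MPP2 by edgeR's quasi-likelihood test with the library as a block, where 30.4% of all 15538 genes were lower. H2-Aa was lower by 1.74 on the log2 scale (log2 difference -1.74, SE 0.32, adjusted p 1.1e-04), Ciita by 1.73 (-1.73, SE 0.24, adjusted p 3.0e-06), and Cd74, H2-Eb1 and H2-DMb1 also passed. H2-Ab1 and H2-DMa did not pass, with differences of 0.00 and -0.12. In MPP3, Cd74 and H2-Ab1 were higher (2 of 7, 33.2% of all genes) and Ciita and H2-DMb1 lower (2 of 7, 32.3% of all genes). In MPP4 all but H2-DMb1 were higher, 6 of 7 against 26.5% of all genes, from 0.51 for Ciita to 1.43 for Cd74.

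The differences of MPP3 and MPP4 from HSC changed when some classes were left out together. Dendritic-like and B lineage-like cells and the Ms4a1 and Igkc clusters were left out in an alternative made after seeing the data, written as without antigen-presenting cells from here on although the B lineage-like cells, 171 to 1848 per library, were low in H2-Aa and the T or NK-like cells stayed in. For transplant libraries the same words mean without the dendritic-like class, with or without a cluster led by Nrp1. That cluster was itself low in class II, with a mean H2-Aa of 8.12 CPM against 57.6 in transplant HSC-like cells. With the baseline cells left out, the median of Cd74 in MPP4 was 40.4 CPM against 144 with all cells, while in HSC it was 47.6 against 55.3. The dendritic-like class and the Ms4a1 and Igkc clusters were high in Cd74, so a lower Cd74 level without them was fixed in advance. Calls on the remaining cells, here and below, describe that subset only. In MPP4 2 genes were above HSC by the test, H2-DMa (0.64) and H2-Ab1 (0.42), where 29.4% of all genes were, and H2-Aa was below it (-0.62), where 27.9% were; Cd74, H2-Eb1 and Ciita differed by -0.05, -0.40 and -0.21 and did not pass. In MPP3 neither Cd74 nor H2-Ab1 was called higher after this step, H2-DMa was (0.31; 31.9% of all genes), and 5 genes were lower (30% of all genes), H2-Aa at -1.12 and Cd74 at -0.62 among them. The lower level in MPP2 was larger without these cells, at -2.13 for H2-Aa and -2.08 for Cd74. With gates placed in each library by antibody rank instead, 2 genes were called lower in MPP2, H2-DMb1 (-0.63) among them, and 1 higher, while H2-Aa (-0.20) and Ciita (-0.27) lost the call and Cd74 and H2-Eb1 turned (0.57 and 0.41, neither passing).

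**Figure D2:**
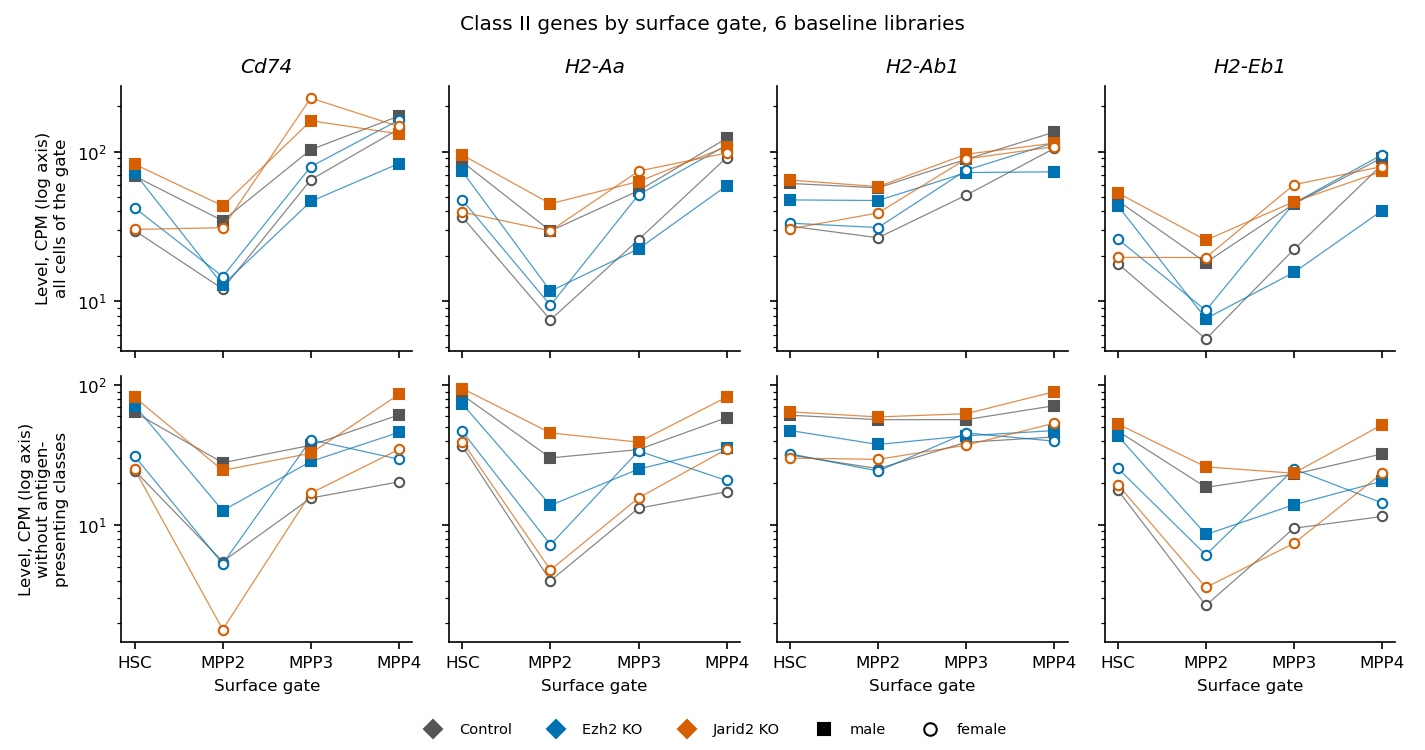
Level of class II genes in CPM on a log axis by surface gate, 1 point per baseline library (colour genotype, squares male, circles female), with all cells of the gate in the upper row and without antigen-presenting classes in the lower row. H2-Aa in MPP2 has a median of 20.6 CPM against 60.5 in HSC, and the MPP4 points of Cd74 drop from a median of 144 to 40.4 CPM in the lower row.

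At baseline no genotype difference passed over all cells. The Ezh2 KO libraries still held much Ezh2 transcript here (log2 difference from Control -0.33). The baseline comparisons, in gates and classes too, therefore do not show what full loss of Ezh2 would do. Cd74 was at 137 and 79.4 CPM in Control (male, female), 71.0 and 103 in the Ezh2 KO pair, 129 and 127 in the Jarid2 KO pair. H2-Aa was at 102 and 49.6, then 48.7 and 71.1, then 96.2 and 73.7 CPM. For both genes the Control values spanned those of Jarid2 KO, and the Jarid2 KO values lay above those of Ezh2 KO. With the class mix fixed at that of Control the ranges overlapped, although within each sex Jarid2 KO stayed above Ezh2 KO (no test): Cd74 was then at 102 and 80.2 CPM in the Ezh2 KO pair and 145 and 100.2 in the Jarid2 KO pair, and H2-Aa at 72.4 and 58.1 against 109.6 and 65.8. By edgeR 0 of 7 genes were called in each contrast, where 3.47% of all 18177 genes were called for Ezh2 KO against Control, 0.033% for Jarid2 KO against Control and 5.91% for Jarid2 KO against Ezh2 KO. At an unadjusted p under 0.05 there were 1, 0 and 0 of the 7 (4260, 2095 and 4816 of all genes), and DESeq2 called 1 (lower), 0 and 0. The differences from Control ran from -0.41 to -0.10 for Ezh2 KO and from -0.13 to 0.27 for Jarid2 KO.

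Within the baseline HSC gate no genotype difference passed either. Ezh2 KO minus Control ran from -0.22 for Ciita to 0.31 for Cd74 (SE 0.13), Jarid2 KO minus Control from -0.23 for Ciita to 0.19 for Cd74 (SE 0.13), and Jarid2 KO minus Ezh2 KO from -0.12 for Cd74 (SE 0.13) to 0.16 for H2-Ab1 (SE 0.12). In the 3 contrasts 0 of 7 genes were called by edgeR or DESeq2 (all genes called: 0.0345, 0.0138 and 0.152%). At an unadjusted p under 0.05 there were 2, 0 and 0 of the 7, and 1341, 1151 and 1265 of all 14480 genes. In MPP2, Jarid2 KO exceeded Ezh2 KO for H2-Aa (1.85), H2-Eb1 (1.48) and Cd74 (1.43), 3 of 7 where 0.588% of all genes were higher, but MPP2 held only 84 to 581 cells per library and none of the 3 passed without antigen-presenting cells. In MPP4 0 of 7 passed with all cells (4.53% of all genes called), and 4 did without antigen-presenting cells: H2-Eb1 (1.02), H2-Aa (0.97), Ciita (0.74) and H2-Ab1 (0.67) were higher in Jarid2 KO, where 1.21% of all genes were.

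Within single classes and clusters, some baseline genotype differences passed. Over the 21 fitted classes and clusters, H2-Aa was called higher in Jarid2 KO than in Ezh2 KO in 10 of 20, H2-Eb1 and Cd74 in 9 of 19 each, H2-Ab1 in 8 of 21 and H2-DMa in 1 of 21, against 0.418% of all gene tests in these fits. Cluster 7, led by Ntng1 and Gria2, had H2-Eb1 higher by 1.67 and H2-Aa by 1.34. B lineage-like cells had Cd74 higher by 1.57 and H2-Aa by 1.20. Against Control, Jarid2 KO was called higher for H2-Aa in 3 of 20, H2-Eb1 and Cd74 in 3 of 19 each and H2-Ab1 in 1 of 21 (0.375% of all gene tests), and Ezh2 KO was called lower for H2-Aa in 2 of 20 and H2-Eb1 and Cd74 in 1 of 19 each (0.259% of all gene tests). In HSC-like cells 0 of 7 genes passed between the knockouts, and the differences ran from -0.09 for Cd74 to 0.04 for H2-Ab1.

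T or NK-like cells went the other way. Their Cd74 was at 1329 and 1238 CPM in Control (male, female), 1063 and 1841 in the Ezh2 KO pair, 348 and 279 in the Jarid2 KO pair, so both Jarid2 KO libraries lay below the others. In Jarid2 KO against Ezh2 KO 4 of the 6 genes tested were called lower, where 1.15% of all genes were: H2-Eb1 (-2.56), Cd74 (-2.19), H2-Aa (-1.96) and H2-Ab1 (-1.81). In these cells H2-Eb1 (-2.38), Cd74 (-2.01) and H2-Aa (-1.75) were also called lower in Jarid2 KO than in Control, where 0.37% of all genes were. The class held only 25 to 91 cells per library.

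Within the HSC gate the male libraries were higher than the female ones. This contrast was read after seeing the data and uses 3 male against 3 female libraries, 1 of each genotype; the labels name no processing date, so sex and any handling that went with it cannot be told apart. Cd74 in HSC-gated cells was at 68.5, 71.9 and 82.3 CPM in the male Control, Ezh2 KO and Jarid2 KO libraries and at 29.7, 42.1 and 30.2 in the female ones. H2-Eb1 was at 47.0, 43.5 and 53.0 against 17.9, 26.1 and 19.7 CPM. H2-Ab1 was at 61.2, 47.5 and 64.5 against 31.8, 33.3 and 30.5 CPM. Every male library lay above every female library for these 3 genes, and likewise for H2-Aa.

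By edgeR 5 of 7 genes were higher in male HSC-gated cells, where 0.477% of 14480 genes were: H2-Eb1 by 1.19 on the log2 scale (SE 0.12, adjusted p 0.00374), Cd74 by 1.14 (SE 0.11, adjusted p 0.00311), H2-Aa by 1.04 (SE 0.11, adjusted p 0.00422), H2-Ab1 by 0.86 (SE 0.10, adjusted p 0.00555) and H2-DMb1 by 0.38 (SE 0.07, adjusted p 0.0493). H2-DMa (0.29, adjusted p 0.0562) and Ciita (0.58, adjusted p 0.325) did not pass. Leaving out 1 library gave 3 to 6 genes, the fewest without the male Jarid2 KO library, and thresholds set separately in each library gave 2. Without antigen-presenting cells 6 genes passed, where 0.603% of all genes were higher, and Cd74 differed by 1.44.

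Over all KSL cells 0 of 7 genes passed between the sexes (0 at an unadjusted p under 0.05, 0 by DESeq2, 0.6% of all genes called). In the MPP2, MPP3 and MPP4 gates 0 genes passed, with 2, 0 and 0 at an unadjusted p under 0.05 (all genes called: 0.21, 0.0456 and 3.45%); without antigen-presenting cells 3, 0 and 6 passed, all higher in male (0.0826% of all genes higher in MPP2 and 1.76% in MPP4). In MPP4 this turned the direction: with all cells Cd74, H2-Eb1 and H2-Aa differed by -0.28, -0.40 and -0.11, without these cells by 1.15, 1.03 and 1.23. The same genes turned in MPP3, from -0.20, -0.31 and -0.12 to 0.51, 0.62 and 0.71, with none passing. Whether the sex difference itself varied between HSC and the other gates was tested, and 0 genes passed in edgeR for MPP2, MPP3 or MPP4 (0, 6 and 6 at an unadjusted p under 0.05; all genes called: 0.0188, 0.00627 and 0.0376%; DESeq2 called H2-Ab1 in MPP4), so the sex difference is not shown to differ between the HSC gate and the others. The HSC-like class showed the same direction as the HSC gate. Its Cd74 was at 117, 132 and 139 CPM in male and 47.1, 64.3 and 51.9 in female libraries, a log2 difference of 1.24 (SE 0.07, adjusted p 2.4e-07), and 4 of 7 genes were higher where 1.36% of all genes were. A cluster of this class, number 11, held 230 to 613 cells in each female library and 7 to 16 in each male one; in the largest cluster alone Cd74 differed by 1.32. Over the 21 classes and clusters with enough cells, H2-Aa was called higher in male in 13 of 20, Cd74 in 12 of 19, H2-Ab1 in 12 of 21 and H2-Eb1 in 12 of 19, against 1.02% of all gene tests in these fits, and none of these was called lower. T or NK-like cells and cluster 24 lay in the other direction, with medians of -0.40 and -0.26 over the genes tested.

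After transplantation all 7 genes were lower in Ezh2 KO than in Jarid2 KO donor cells, with Control between them. Cd74 was at 75.1 CPM in the Control library, 33.9 and 51.7 in the Ezh2 KO libraries and 112 and 187 in the libraries labelled Jarid2 KO. H2-Eb1 was at 27.8, then 10.2 and 12.7, then 45.4 and 65.4 CPM. Ciita was at 2.62, then 1.16 and 1.49, then 3.07 and 3.70 CPM. For all 7 genes both Ezh2 KO libraries lay below Control and both Jarid2 KO libraries above it, although for H2-DMa the steps were small, with 159.5 CPM in the Control library, 126 and 144 in the Ezh2 KO pair, 166 and 207 in the Jarid2 KO pair. The remaining values were 40.8, then 15.8 and 24.5, then 65.3 and 97.7 CPM for H2-Aa, and 81.0, then 44.6 and 54.3, then 112 and 159 CPM for H2-Ab1. H2-DMb1 was at 37.7, then 26.0 and 30.5, then 40.5 and 52.7 CPM.

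**Figure D3:**
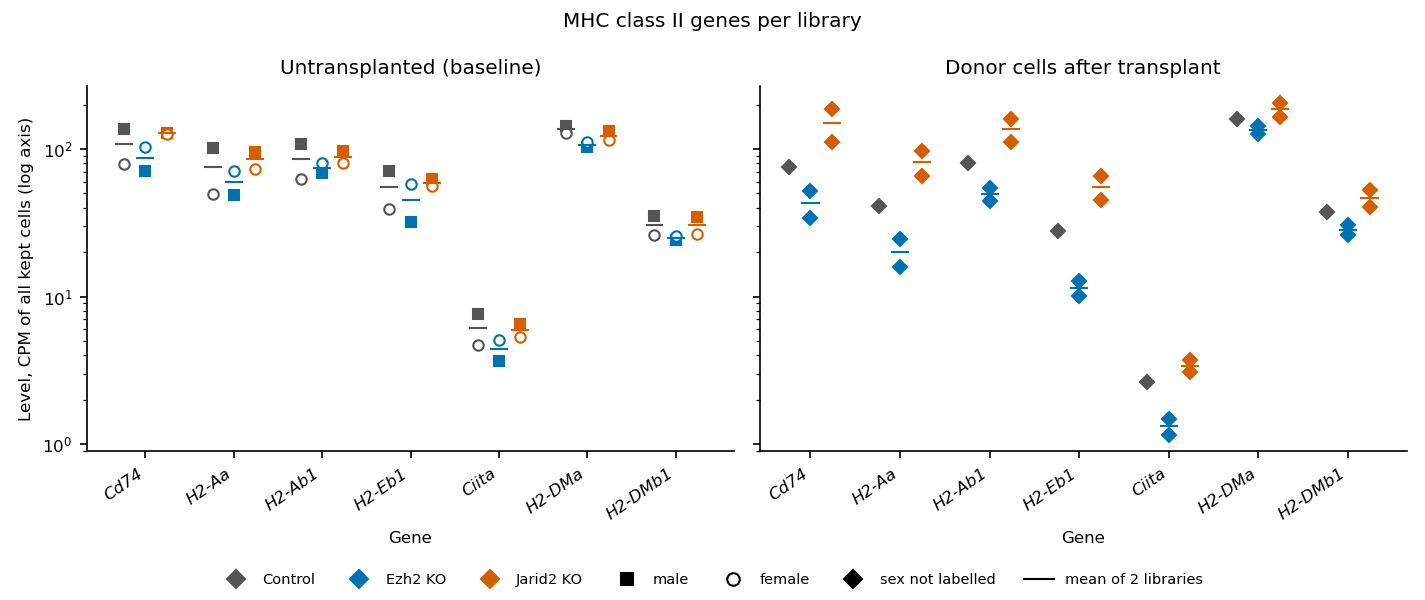
Level of each gene over all kept cells of a library in CPM on a log axis, at baseline (left; squares male, circles female) and after transplant (right; diamonds, sex not labelled), coloured by genotype, with bars at the mean of 2 libraries. After transplant every Jarid2 KO point lies above Control and every Ezh2 KO point below it, for example 112 and 187 against 33.9 and 51.7 CPM for Cd74; at baseline the Control range overlaps that of Ezh2 KO for Cd74 and H2-Aa but not for H2-DMa and H2-DMb1.

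Between the 2 knockouts all 7 genes passed edgeR's quasi-likelihood test, where 4.38% of 15758 genes were higher in Jarid2 KO, and their median log2 difference was 1.48 against 0.00334 over all genes. With the class mix as it was in each library, the peptide-binding chains and invariant chain differed most: H2-Eb1 by 2.30 (SE 0.16, adjusted p 7.3e-04), H2-Aa by 2.04 (SE 0.22, adjusted p 0.0034), Cd74 by 1.83 (SE 0.25, adjusted p 0.00672) and H2-Ab1 by 1.48 (SE 0.15, adjusted p 0.00266). With the mix fixed at that of Control this order was not kept for Cd74 and Ciita. Mean Cd74 was then 55.5 in Ezh2 KO and 102 CPM in Jarid2 KO, and mean Ciita 1.41 and 2.81 (no test). Ciita differed by 1.39 (SE 0.16, adjusted p 0.00413). The DM genes differed least, H2-DMb1 by 0.75 (SE 0.11, adjusted p 0.00916) and H2-DMa by 0.49 (SE 0.12, adjusted p 0.0438). The share of barcodes lost to the mitochondrial limit also separated the pairs, lower in Ezh2 KO. With all deposited barcodes kept, 7 genes passed as well, from 0.47 for H2-DMa to 2.09 for H2-Eb1 (share of all genes not given). As folds, with the class mix as it was in each library, the differences were 4.92 for H2-Eb1, 3.55 for Cd74, 2.62 for Ciita and 1.40 for H2-DMa.

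Differences from Control rest on 1 Control library. In Ezh2 KO, H2-Eb1 fell by 1.37 on the log2 scale (SE 0.18, adjusted p 0.0114, edgeR) and Ciita by 1.08 (SE 0.20, adjusted p 0.0339), 2 of 7 where 1.44% of all genes fell. Cd74 (-0.90), H2-Aa (-1.11), H2-Ab1 (-0.80), H2-DMb1 (-0.50) and H2-DMa (-0.33) did not pass, with adjusted p from 0.0613 to 0.315. The count moved from 0, with male cells only or without antigen-presenting cells, to 6, without either Jarid2 KO library or without the filter on low counts, and DESeq2 called 4. In Jarid2 KO 0 of 7 genes passed against Control in edgeR, with differences of 0.16 to 0.93, 4 genes at an unadjusted p under 0.05, 3 called by DESeq2, and 0.336% of all genes called. With no second Control library its spread is taken to equal that of the knockout libraries, here and in all transplant comparisons with Control. Shares of all genes called use the adjusted p, here and elsewhere, and give no background for counts at an unadjusted p. An exact permutation test of a single gene with 1 library against 2 cannot go below p = 0.333.

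The Ezh2 KO transplant libraries contained almost only male cells while the others were mixed, and at baseline the HSC-gated male cells had the higher level. With male cells alone, 6 of 7 genes were still higher in Jarid2 KO than in Ezh2 KO: H2-Eb1 by 2.39, H2-Aa by 2.12, Cd74 by 1.92, H2-Ab1 by 1.42, Ciita by 1.31 and H2-DMb1 by 0.71, while H2-DMa at 0.42 did not pass (adjusted p 0.0913, edgeR). The share of all genes called is not given for male cells alone, so this count has no background beside it. Within the mixed libraries male cells over all classes had the lower H2-Aa level, 32.1 CPM against 43.8 in female cells of Control, 48.7 against 80.2 in the first Jarid2 KO library and 93.0 against 103 in the second. In HSC-like cells the direction varied, with H2-Aa at 71.3 in male and 51.1 CPM in female cells of Control, 79.8 and 85.2 in the first Jarid2 KO library and 96.4 and 93.6 in the second. Male HSC-like cells of the Ezh2 KO libraries had H2-Aa at 18.7 and 19.0 CPM.

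The difference was present in the stem-cell-like cells themselves. The transplant HSC-like class was cluster 0, led by the stem-cell gene Procr with 7 of 11 HSC markers raised, and with the interferon-inducible gene Iigp1 and the lymphotoxin gene Ltb also among its leading genes. It held 518 cells in the Control library, 987 and 1149 in the Ezh2 KO pair, 585 and 657 in the Jarid2 KO pair. H2-Aa was at 58.8 CPM in the Control library, 21.8 and 21.9 in the Ezh2 KO pair, 87.3 and 98.3 in the Jarid2 KO pair. H2-Eb1 was at 28.8, then 9.0 and 10.3, then 48.9 and 58.3 CPM. The 3 genotypes did not overlap for these genes, nor for Cd74, at 70.9, then 25.0 and 31.5, then 86.9 and 99.0 CPM, or H2-Ab1, at 79.1, then 35.4 and 38.9, then 97.1 and 129 CPM.

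In these cells 4 of 7 genes were lower in Ezh2 KO than in the single Control library by edgeR, with the spread taken from the knockout libraries, where 0.768% of 12494 genes were lower: H2-Eb1 fell by 1.63 (SE 0.16, adjusted p 0.00142), H2-Aa by 1.47 (SE 0.14, adjusted p 0.00103), Cd74 by 1.38 (SE 0.16, adjusted p 0.00247) and H2-Ab1 by 1.14 (SE 0.16, adjusted p 0.00665). The same 4 were higher in Jarid2 KO than in Ezh2 KO, where 1.42% of genes were higher, by 2.45, 2.06, 1.70 and 1.58 (SE 0.11 to 0.13, adjusted p 1.5e-05 to 1.9e-04). Against Control 0 of 7 passed in Jarid2 KO (3 at an unadjusted p under 0.05, 0 by DESeq2, 0.12% of all genes called). Ciita, with 1.13 and 2.77 CPM in Ezh2 KO, 4.31 in Control and 5.29 and 3.59 in Jarid2 KO, did not pass in any of them. With male cells only, 4 genes passed between the knockouts and 1, H2-Aa, between Ezh2 KO and Control.

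**Figure D4:**
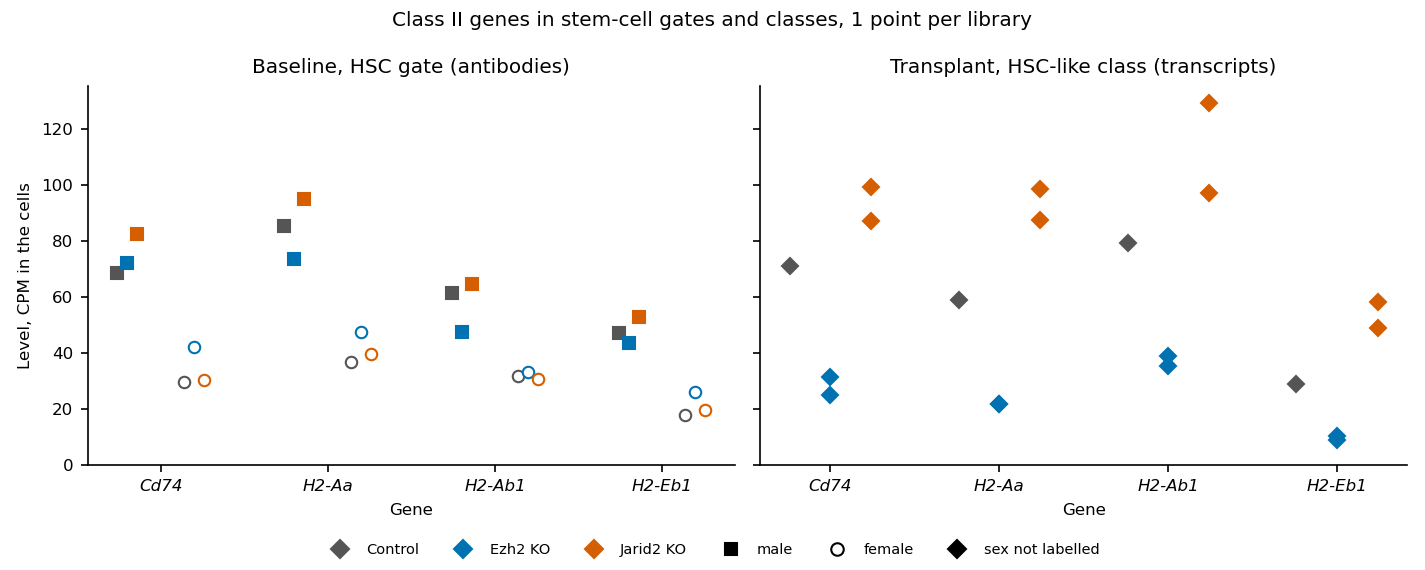
Level of Cd74, H2-Aa, H2-Ab1 and H2-Eb1 in CPM, 1 point per library, in antibody-gated baseline HSCs (left) and in the transplant HSC-like class (right), coloured by genotype. At baseline the male squares lie above the female circles whatever the genotype; after transplant the Ezh2 KO points lie lowest and the Jarid2 KO points highest, for example 21.8 and 21.9 against 87.3 and 98.3 CPM for H2-Aa.

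Across the 14 transplant classes and clusters with at least 20 cells in every library, H2-Ab1 was called higher in Jarid2 KO than in Ezh2 KO in 11 of the 13 where it was tested, against 0.895% of all gene tests in these fits. H2-Aa was called higher in 8 of 12, H2-Eb1 in 6 of 9, Cd74 in 5 of 11, H2-DMb1 in 4 of 13, H2-DMa in 3 of 14 and Ciita in 2 of 6. None of the 7 was called lower in any of them; H2-Eb1 in basophil or mast-like cells (-0.98) and H2-DMa in 1 unit (-0.52) were the only negative differences, and neither passed. Against Control, Ezh2 KO was called lower for H2-Ab1 in 4 of 13, H2-Aa in 4 of 12, H2-Eb1 in 4 of 9 and Cd74 in 3 of 11, against 0.388% of all gene tests; all of these calls rest on the same Control library and are not separate evidence. Each unit was fitted alone with all its genes, and the units of a library share that library. Some fitted units were near the floor. H2-Aa was at 0.202 to 5.12 CPM in cluster 8, 0.387 to 6.24 in cluster 10, 0.695 to 7.80 in cluster 11 and 0.621 to 3.96 in cluster 13. H2-Ab1 was higher in cluster 8, at 27.1 to 58.5 CPM. Free RNA in the droplets could give such low levels, and its part in these calls was not tested.

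**Figure D5:**
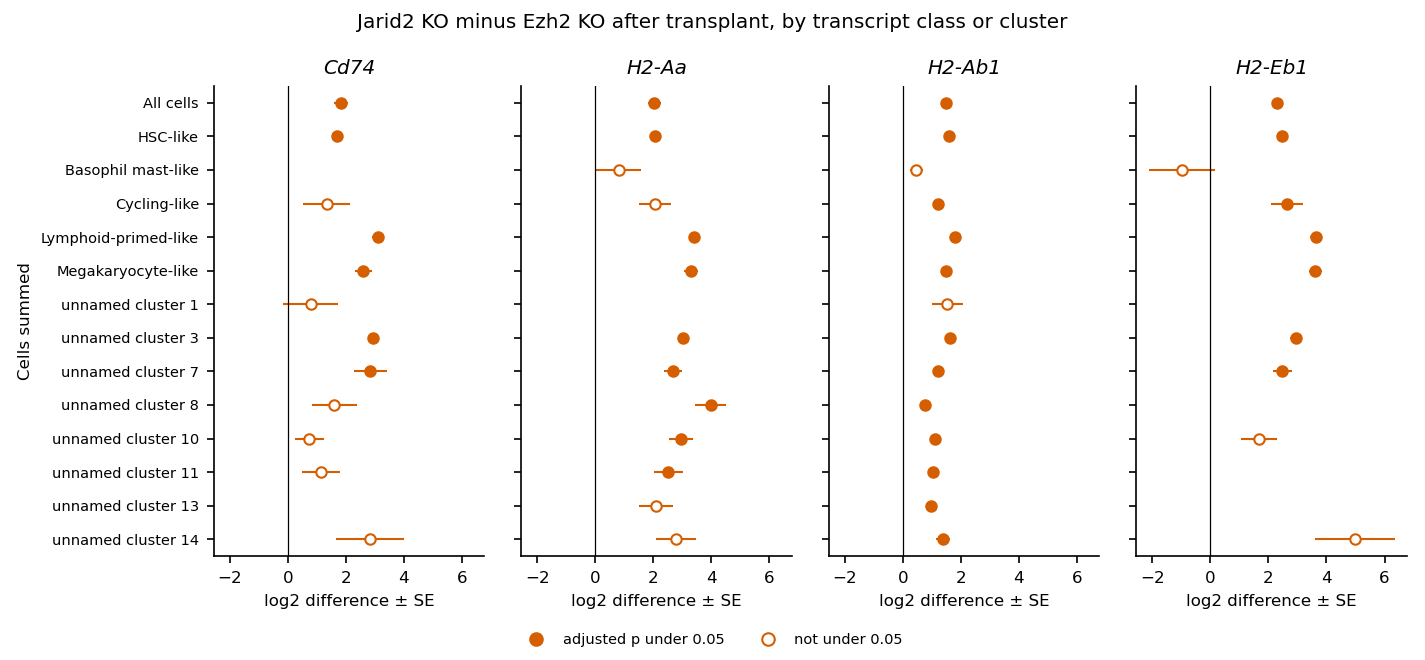
Log2 difference of Jarid2 KO minus Ezh2 KO after transplant (x axis, with SE bars) for each class or cluster that was fitted (y axis), 1 panel per gene; filled points have an adjusted p under 0.05. H2-Ab1 points are filled in 11 of 13 rows and all lie to the right of 0.

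Dendritic-like cells, which carry most Cd74 UMIs, were few in every transplant library, 17 in the Control library, 16 and 15 in the Ezh2 KO pair, 25 and 38 in the Jarid2 KO pair. Their own H2-Aa level was 7260 CPM in the Control library, 5595 and 6682 in the Ezh2 KO pair, 7513 and 9807 in the Jarid2 KO pair, too few cells for a test. Over all cells the dendritic markers Xcr1 and Clec9a were lowest in Ezh2 KO and highest in Jarid2 KO, with Xcr1 at 0.887 CPM in the Control library, 0.511 and 0.434 in the Ezh2 KO pair, 2.18 and 2.08 in the Jarid2 KO pair. Clec9a was at 1.20, then 0.538 and 1.07, then 1.94 and 1.91 CPM, while Itgax was not ordered this way (1.12, then 2.59 and 2.69, then 1.65 and 1.60). In bulk sums fewer such cells and less RNA per cell cannot be told apart, so the class mix was also fixed at that of Control. Cd74 was then 48.9 and 62.2 CPM in the Ezh2 KO libraries, 84.0 and 119 in the Jarid2 KO libraries, H2-Aa 22.1 and 29.9 against 54.1 and 72 CPM and H2-Eb1 14.97 and 15.9 against 35.7 and 45.9 CPM, so the order of the genotypes was kept at a smaller distance. With the dendritic-like class and the cluster led by Nrp1, Irf8 and Csf1r left out, 6 of 7 genes passed between the knockouts, and H2-DMa missed with an adjusted p of 0.0501 (edgeR). The share of all genes called is not given for this fit.

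Whether the genotype differences were larger after transplant than at baseline was tested as a difference of differences. For Jarid2 KO minus Ezh2 KO, H2-Ab1 passed at 1.28 (SE 0.29, adjusted p 0.0461, edgeR), 1 of 7 where 1.79% of 18938 genes were larger after transplant. H2-Eb1 (1.94, adjusted p 0.0543), H2-Aa (1.61, adjusted p 0.102) and Cd74 (1.31, adjusted p 0.143) did not pass. All 7 were positive with an unadjusted p under 0.05, a threshold that 3627 of all 18938 genes met in either direction. The H2-Ab1 call was lost without the female baseline Ezh2 KO library (0.92), either baseline Jarid2 KO library (1.29 and 1.27), the transplant Control (1.30), either transplant Ezh2 KO library (1.20 and 1.39) or the second transplant Jarid2 KO library (1.08), and without antigen-presenting cells (0.82). Against Control 0 of 7 passed in either knockout (0 and 0 at an unadjusted p under 0.05; 0.734 and 0.0211% of all genes called). The libraries of the 2 experiments were made with different versions of the counting software and at different depth, which cannot be told apart from transplantation here. The Ezh2 transcript itself was above Ezh2 KO in Jarid2 KO by 0.30 at baseline and by 2.08 after transplant. How much Ezh2 transcript was left in Ezh2 KO therefore cannot be told apart from transplantation either.

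Other genes of the pathway were counted by list. Of 9 genes for processing and turnover of class II, 3 were higher in transplanted Jarid2 KO than Ezh2 KO cells and 0 lower, with a median log2 difference of 0.13; over all genes 4.38% were higher and 7.67% lower. These were Ctss, the protease that trims the invariant chain (0.73, adjusted p 0.00346, edgeR; 26.8 CPM in Control, 16.0 and 17.4 in Ezh2 KO, 25.9 and 28.6 in Jarid2 KO), Ifi30, a lysosomal thiol reductase (0.68), and March1 (Marchf1), a ubiquitin ligase for class II. In HSC-like cells Ctss differed by 1.67 between the knockouts and fell by 1.71 in Ezh2 KO against Control. Of the factors that hold Ciita at the promoter or act with it, 0 of 10 passed between the transplanted knockouts (median 0.00842). Among them were Rfx5, Nfya, Creb1, Spi1 and Irf8. Of 12 class I pathway genes 0 passed (median 0.0908). Other contrasts called some factors. At baseline Nfyb and Irf8 were lower in Jarid2 KO than Ezh2 KO (2 of 10, with 804 of 18177 genes lower). Irf8 and Irf4 were higher there in Ezh2 KO than Control (2 of 10, with 511 genes higher). Irf4 was also higher in transplanted Ezh2 KO than Control (536 of 15758 genes higher). For Jarid2 KO minus Ezh2 KO, Irf8 was called larger after transplant than at baseline (339 of 18938 genes).

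Interferon genes moved in both directions. Of 14 genes, 2 were higher in transplanted Jarid2 KO than Ezh2 KO cells, where 4.38% of all genes were, Ifngr1, the ligand-binding chain of the interferon gamma receptor (0.62), and Gbp3 (0.44). Another 4 were lower, where 7.67% of all genes were, Ifit1, Ifit3, Irf7 and Isg15 (-0.72, adjusted p 0.00523, edgeR). The median was -0.0438 against 0.00334 over all genes. Ifit1, Isg15 and Irf7 were also called lower in Jarid2 KO than Ezh2 KO at baseline (3 of 14, with 804 of all 18177 genes lower) and higher there in Ezh2 KO than Control (511 of all genes higher). In the baseline HSC gate, Irf1, an interferon gamma target, was the only one of the 14 called between the sexes and was higher in male by 0.49. Of the other class II genes H2-Oa, H2-Ob, H2-DMb2 and H2-Eb2, 0 of 4 passed between the transplanted knockouts (median 0.154), and H2-Oa, a chain of the DO modulator of DM, was lower in Ezh2 KO than in Control (-0.62), at 16.9 CPM in the Control library, 11.3 and 11.9 in the Ezh2 KO pair, 12.1 and 14.8 in the Jarid2 KO pair, so that the Control library lay above all 4 others. Between gates, 1 of the 4 other class II genes was called above HSC in MPP2, 4 in MPP3 and 3 in MPP4, and 0 below. Over all genes 29.5, 33.2 and 26.5% were above. H2-Ob was above HSC in each, by 1.58 in MPP2, 1.96 in MPP3 and 3.01 in MPP4. Of the 10 factors, 5 were higher and 2 lower in MPP2 (all genes: 29.5% higher, 30.4% lower), 7 higher and 1 lower in MPP3 (all genes: 33.2% higher, 32.3% lower), and 6 higher and 1 lower in MPP4 (all genes: 26.5% higher, 27.5% lower). Irf8, a dendritic and B-cell factor, was higher by 2.08, 3.53 and 3.81, while Rfx5 was lower in MPP2 and MPP3, Spi1 in MPP2 and Rfxap in MPP4.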

How the data were processed

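Transcripts of single KSL cells were counted with the 10x 3′ v3.1 chemistry per the labels' protocols. The deposited matrices hold UMI counts per gene and cell, not normalized; per the file headers they were made with Cell Ranger 7.2.0 (baseline, with antibody counts) and 6.1.2 (transplant), while the submitters' processing notes name Cell Ranger 3.1.0, Seurat 3.0 and the mouse build mm10. No source used here gives the counting rules for strand or for reads shared by near-identical genes. The members and gene lists were chosen with earlier results of these data known.

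Cells with at least 1000 UMIs, 500 genes and at most 10% mitochondrial counts were kept, and the top-scoring 0.8% per 1000 barcodes were removed as doublets (6.13 to 8.30% of cells; automatic thresholds marked 2 to 176 cells). Control cells of each experiment were clustered (Leiden, resolution 1.5, scanpy 1.11.5, leidenalg 0.10.2) without the 7 genes, other class II, sex-linked, mitochondrial, ribosomal, Jarid2 and Ezh2 genes; other cells took the class of their nearest Control cells. Gates used centred log ratios of the 6 antibodies, with limits from 2-component mixtures (scikit-learn 1.9.0) fitted to both Control libraries. Baseline cycling-like and lymphoid-primed-like and transplant myeloid granule-like classes mixed markers of other classes and were compared by cluster number only.

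Counts were summed per library and class or gate and tested with edgeR 4.0.16 in R 4.3.3 (quasi-likelihood, two-sided, TMM, filterByExpr, Benjamini-Hochberg over all genes tested, called at an adjusted p under 0.05), with genotype and sex at baseline, genotype after transplant, and library and gate between gates. DESeq2 1.42.0 and the other alternatives are given at the end. The genes named were the 7 members, plus list genes that passed, plus the 5 genes most like H2-Aa and Ciita; gene lists were described by counts and medians. The fits were tested on simulated counts with known changes. Nothing states that libraries of a group came from separate animals, so p-values measure the spread between libraries; replicates differed by more than sampling noise. Baseline libraries of the same sex deviated together (correlations 0.496, 0.703 and 0.339), so sex is in the fit. Taken over all genes of whole libraries, counting error was small against that spread. This was not checked for small classes or for genes with few UMIs, such as Ciita with 120 to 317 per transplant library. Intervals were not computed. The H3K27me3 libraries were not analysed here.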

Additional observations from a re-analysis of the deposited data

Results flagged for a closer look

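H2-Ab1 was the only member whose Jarid2 KO minus Ezh2 KO difference was larger after transplant than at baseline by the test of the difference itself, by 1.28 on the log2 scale (SE 0.29, adjusted p 0.0461, edgeR). After transplant it stood at 44.6 and 54.3 CPM in the Ezh2 KO pair, 112 and 159 in the Jarid2 KO pair, at baseline at 69.3 and 80.0 against 97.3 and 80.0. Over its alternatives the value ran from 0.78 to 1.60, and H2-Eb1, at 1.94, had the larger difference with an adjusted p of 0.0543.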

How the results depend on the processing

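Counts of genes called are given out of 7. The alternatives that leave out antigen-presenting cells, read a sex contrast or change libraries and cells within a class or gate were partly added after seeing the data. For most alternatives, male HSC-like cells among them, no share of all genes called is given, so their counts have no background. All 7 genes higher in transplanted Jarid2 KO than Ezh2 KO cells became 5 with a minimum of 10 CPM and 6 to 7 when each library was left out, and stayed at 7 with DESeq2, RLE factors, all barcodes, doublets kept and no filter on low counts. A replicate block on the knockout libraries also left 7; same-numbered transplant libraries correlated at 0.0188, so they share only a number. For transplanted Ezh2 KO against Control, 2 genes lower became 4 with DESeq2, 1 with all barcodes, with a minimum of 10 CPM or with the strict cell filter, 0 with male cells only, without the dendritic-like class or also without the cluster led by Nrp1 (no monocyte-like or B lineage-like class was named after transplant), 6 without the filter on low counts, and 1 to 6 when each library was left out. Jarid2 KO against Control went from 0 to 3 with DESeq2, 1 without that filter and 0 to 1 leaving out libraries. In transplant HSC-like cells, 4 genes lower in Ezh2 KO became 1 with male cells only, and Jarid2 KO against Control gave 0 to 1 leaving out libraries. The causes of these shifts were not tested.

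At baseline, leaving out libraries gave 0 to 2 genes lower in Ezh2 KO than Control, 0 to 1 higher in Jarid2 KO than Ezh2 KO, 0 to 1 higher in male, and 0 to 1 for either knockout against Control in HSC-like cells; DESeq2 gave 1 lower in Ezh2 KO, and leaving out dendritic- and B-lineage-like classes gave 1 higher in male. The difference between experiments moved from 1 gene to 2 with DESeq2, all barcodes, doublets kept or RLE factors, 3 without the filter on low counts, 0 with a minimum of 10 CPM, with the strict cell filter or without the sex term (no replicate block), and 0 to 4 leaving out libraries.

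Between gates, upper-third limits gave 1 gene higher and 2 lower in MPP2 (Cd74 0.57, H2-Eb1 0.41) and 1 higher and 0 lower in MPP3. Without antigen-presenting cells MPP3 had 1 higher and 5 lower (Cd74 -0.62) and MPP4 2 higher and 1 lower (Cd74 -0.05, H2-Aa -0.62, H2-Eb1 -0.40, Ciita -0.21). For sex, the HSC gate went from 5 to 2 with limits fitted in each library and 3 to 6 leaving out libraries, MPP2 from 0 to 1 with such limits and 3 without antigen-presenting cells, MPP4 from 0 to 6 without them, and the sex difference of MPP4 against HSC from 0 to 1 with DESeq2. For Jarid2 KO against Ezh2 KO, MPP2 went from 3 to 0 with limits fitted in each library and 0 without antigen-presenting cells, MPP3 from 0 to 1 with such limits (also 1 for Jarid2 KO against Control), and MPP4 from 0 to 4 without antigen-presenting cells. Single-gene differences kept direction and call in 420 recomputed values, lost the call in 56 and reversed in 7. Ciita, at 1.16 to 7.60 CPM over all cells, is the gene most limited by depth.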
